A study of Mus musculus with 8 samples.

Results

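The genes described here are 34 mouse genes of mitosis and cytokinesis, the steps in which a cell separates its duplicated chromosomes and then divides its cytoplasm. They were chosen by name, from Mki67 to Hmmr, and each symbol matched 1 Ensembl gene among the 29844 rows of the coding count table. All 34 passed the filter on low counts, which left 14059 genes for testing. The cells were cardiomyocytes from hearts of H2B-eGFP mouse embryos (B6.Cg-Tg(HIST1H2BB/EGFP)1Pa/J, whose transgene carries a fluorescent histone) at E18.5, shortly before birth. They were cultured for 4 days, to confluence, in serum-containing medium on silicone (PDMS) of about 10 kPa (soft, 4 libraries) or about 150 kPa (stiff, 4 libraries). Both groups share the strain, age, medium and culture time, and the substrate is the labelled difference. The library codes of soft and stiff also belong to different series, and the labels do not say what a series marks. Anything that goes with the code series cannot be told apart from the substrate. The labels describe digestion of whole microdissected hearts and name no sort of the cells, so a library can hold RNA of every cell type that attached.

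Mitosis is driven by cyclin-dependent kinase 1 (Cdk1) with its cyclin partners, which are built up before division and destroyed at the anaphase-promoting complex's command. Kinetochores attach chromosomes to the spindle, a checkpoint delays anaphase until all are attached, and the central spindle and contractile ring then part the daughter cells. Rodent cardiomyocytes divide in the embryo and leave the cell cycle around birth, often with a last round in which the nucleus divides but the cell does not. Fibroblasts and other non-muscle cells of the heart keep dividing in culture.

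Many genes of this kind are switched on together in G2 and mitosis through 2 short promoter elements, the cell cycle genes homology region (searched here as TTTGAA) and the CCAAT box bound by NF-Y. Both were searched on both strands of RefSeq windows (GRCm38.p6) from 250 bases before to 50 bases after a gene's start. The windows of 30 members were at hand, 33 in all. Aurkb, Ccna2, Kif20a and Tpx2 had no entry. TTTGAA lay in 26 of the 33 member windows (78.8%), against 17.9% of all 32851 windows. CCAAT lay in 24 (72.7%), against 37.4%, and both lay in 21 (63.6%), against 6.95%. No match of one overlapped a match of the other in a member window. These matches are descriptions of letters and not evidence of binding. The sequences printed here are the 250 bases before the start of the 3 members with the lowest p for library number (described further on) that hold both elements there, followed by the lowest of those with neither, all 5′ to 3′ on the gene's own strand. Capitals mark both elements on either strand, so that some appear as their reverse complements. The windows are chr10:69352913-69353162 (minus strand) for Cdk1, chr4:118437344-118437593 (minus) for Cdc20, chr19:37376132-37376381 (plus) for Kif11 and chr1:169531465-169531714 (minus) for Nuf2.
Cdk1: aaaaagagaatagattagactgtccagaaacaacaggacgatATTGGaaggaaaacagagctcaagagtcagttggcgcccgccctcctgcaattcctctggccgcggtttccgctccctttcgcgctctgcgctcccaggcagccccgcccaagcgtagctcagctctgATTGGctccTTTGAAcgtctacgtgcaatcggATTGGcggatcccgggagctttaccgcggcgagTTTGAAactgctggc
Cdc20: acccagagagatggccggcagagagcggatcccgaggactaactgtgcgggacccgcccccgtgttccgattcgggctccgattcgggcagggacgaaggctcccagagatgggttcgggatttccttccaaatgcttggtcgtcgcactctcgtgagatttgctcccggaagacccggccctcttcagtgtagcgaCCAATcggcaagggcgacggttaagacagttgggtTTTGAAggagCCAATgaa
Kif11: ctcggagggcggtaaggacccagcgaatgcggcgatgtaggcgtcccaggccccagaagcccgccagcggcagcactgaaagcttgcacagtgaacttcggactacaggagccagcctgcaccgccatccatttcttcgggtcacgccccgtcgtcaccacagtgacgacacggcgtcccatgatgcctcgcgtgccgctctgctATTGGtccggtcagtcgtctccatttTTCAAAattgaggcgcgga
Nuf2: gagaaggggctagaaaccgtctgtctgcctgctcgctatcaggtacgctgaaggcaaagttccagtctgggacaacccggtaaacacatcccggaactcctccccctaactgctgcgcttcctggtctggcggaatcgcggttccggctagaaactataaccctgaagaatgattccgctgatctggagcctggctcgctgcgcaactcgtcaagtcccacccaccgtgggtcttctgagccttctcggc
In Cdk1 TTTGAA began 71 and 15 bases before the start and an inverted CCAAT 208, 80 and 48 bases before it. In Cdc20 the distances were 18 for TTTGAA and 53 and 8 for CCAAT, and in Kif11 they were 19 and 45. Nuf2 and Birc5, with neither element in their windows, also differed between library numbers, whereas Mad2l1 and Nusap1, likewise without either, did not. Both elements lay in 15 of 23 windows of members that differed, and in 6 of 10 windows of the others.

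Depth was even between libraries. Coding totals ran from 27646471 to 34693673 counts, and the lowest count of any member in any library was 129 (Plk1 in soft 1), so that counting error is small beside the differences between libraries. Levels are CPM (counts scaled to library size, with TMM factors) and are compared within a gene, never between genes, since no transcript lengths were used. As a check of the labelled cell type, all 12 cardiomyocyte markers, among them Myh6 and Tnnt2, were counted in all 8 libraries. Markers of other cell types were present as well, and their levels are given beside the results they move with. The labels do not say whether equal substrates mean separate hearts or dishes, so the spread that p-values rest on may be technical in part. In bulk RNA, fewer dividing cells and less RNA per dividing cell cannot be told apart.

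The first comparison was between substrates. No member passed the test between stiff and soft (edgeR quasi-likelihood F test, Benjamini-Hochberg adjusted p under 0.05): 0 of 34 were called, against 0% of all 14059 genes. At an unadjusted p under 0.05 there were 0 of 34 members and 130 (0.92%) of all 14059 genes, so the members did not stand apart here either. The lowest unadjusted p of a member was 0.320, for Nuf2. DESeq2 and limma-voom also called 0 members. The estimates of 24 members (70.6%) were higher and of 10 lower on stiff, where 48.1% of all genes were higher. Leaving out 1 library moved the 24 to between 8 (without soft 1) and 31 (without soft 3). The members' estimates ran from -0.32 for Birc5 to 0.44 for Nuf2. Their median log2 fold change was 0.06, against -0.01 over all genes. This median was -0.11 without soft 1, -0.02 without soft 2, -0.09 without stiff 3 and -0.08 without stiff 4, but 0.23 without soft 3 or stiff 1, so its sign rested on single libraries. The substrates overlapped for every one of the 34 members. Of all genes 1.29% had no overlap, so small a share that 0 of 34 does not set the members apart.

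**Figure D1:**
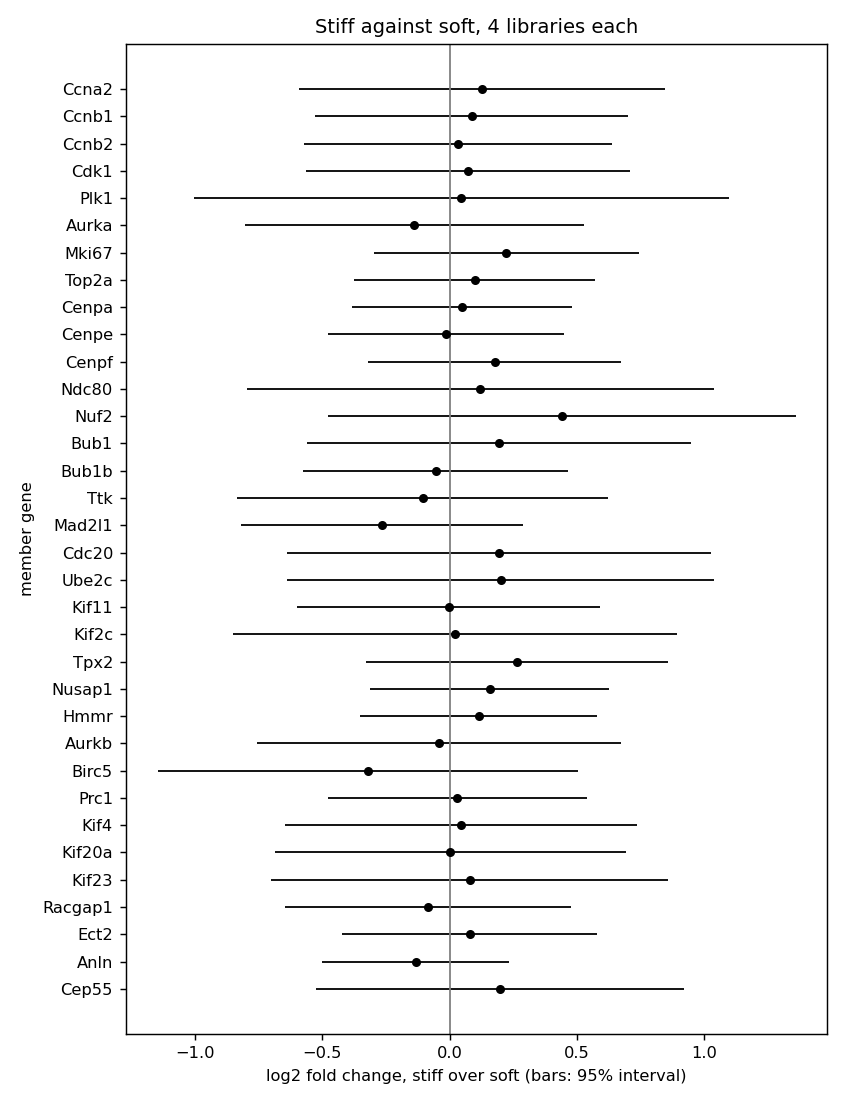
Log2 fold change of each of the 34 members, stiff over soft, from the edgeR fit on substrate alone (points, 4 libraries a substrate) with the 95% interval (bars). Genes run from kinases and cyclins at the top to abscission genes at the bottom. Every interval spans 0, and the estimates lie between -0.32 (Birc5) and 0.44 (Nuf2).

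The intervals set what the fit on substrate alone could show, in which differences between library numbers count as spread. Members had a median 95% half-width of 1.54-fold around the estimate, against 1.51-fold over all genes. For Mki67, the proliferation antigen that coats mitotic chromosomes, the interval of the log2 fold change was -0.30 to 0.74. For Plk1, a kinase that acts at entry into mitosis and at cytokinesis, it was -1.0 to 1.1, and for Anln, the contractile ring scaffold anillin, -0.50 to 0.23. With the number as a block, which takes those differences out, the median half-width was 1.31-fold, and 0 members were called there either. A missed threshold does not show equal levels.

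The members differed instead by library number, the last digit of the library code (1 to 4 on each substrate), as did other gene lists given below. What the digit marks is not given in the sources used here. In a model with number and substrate as terms, 23 of the 34 members (67.6%) differed between numbers (edgeR F test over the 3 number terms, adjusted over all genes), against 7.61% of all 14059 genes (1070). The count of members was 15 without soft 1 and 13 without stiff 1, and between 17 and 26 without any other single library. The count of all genes was 1697 without stiff 4. The call held in all 14 alternatives for 9 members (Ccna2, Cdk1, Mki67, Ndc80, Nuf2, Cdc20, Kif2c, Kif20a and Kif23) and was lost in at least 1 for the other 14 of the 23, each time by leaving out a library: 10 without stiff 1, 8 without soft 1, 6 without soft 3, 3 without stiff 3 and 1 each without soft 2, soft 4 or stiff 4. Among the 11 members that did not pass were Anln, Cenpa, Nusap1, Mad2l1 and Cenpe. Number 1 had the lowest mean of its soft and stiff libraries for 27 members and number 2 for the other 7, whereas number 1 was lowest for 19.7% of all genes. Number 3 had the highest mean for 22 members and number 4 for 12, against 22.4% and 30.7% of all genes.

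**Figure D2:**
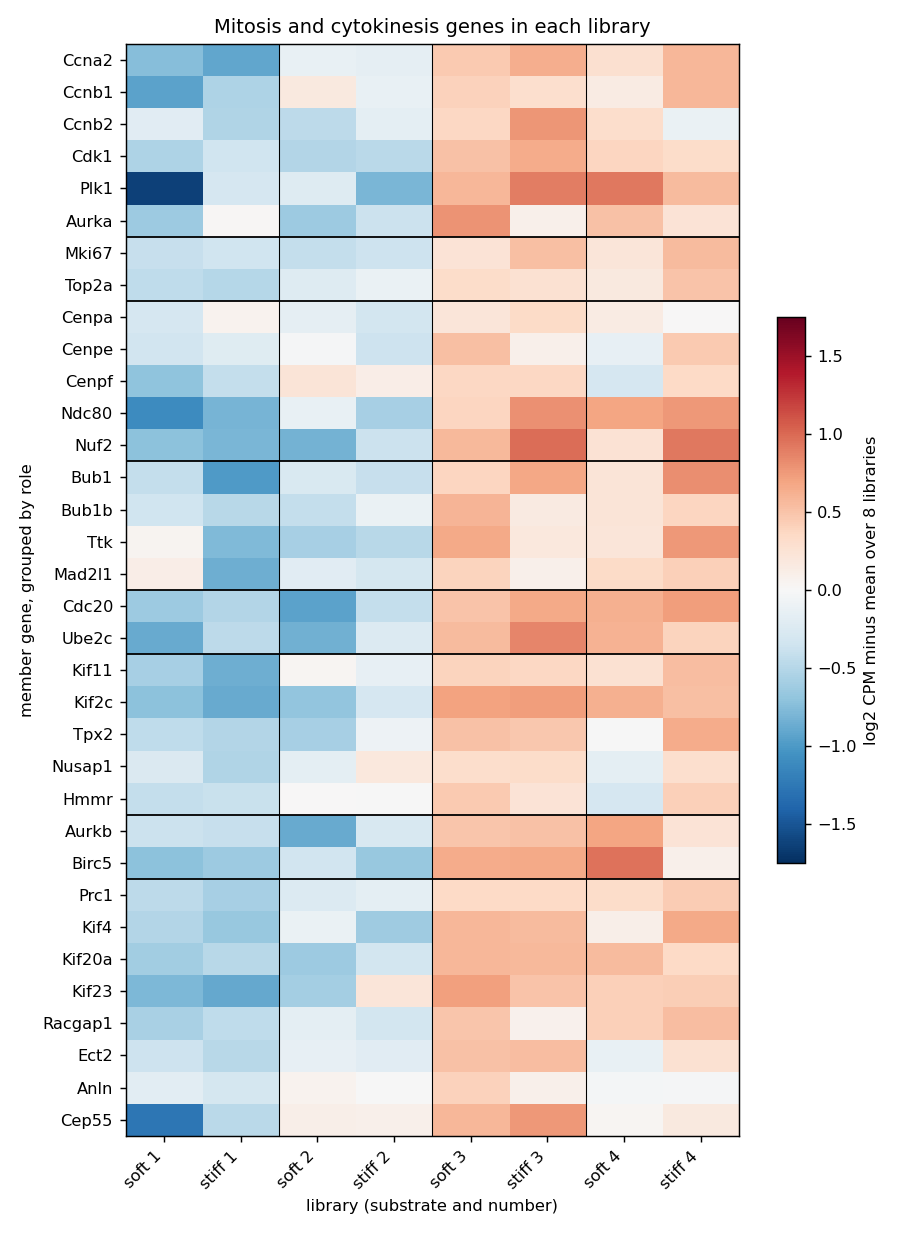
Log2 CPM of the 34 members (rows, lines between roles) relative to the mean of that gene in all 8 libraries, with libraries in pairs of equal number (columns); blue is below the mean and red above. The pairs numbered 1 and 2 are mostly blue and the pairs numbered 3 and 4 mostly red, on soft and on stiff alike.

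Contrasts between single numbers, added after the data were seen, placed the difference. Number 3 was higher than number 1 for 20 members (1.02% of all genes were higher) and lower for 0 (0.605%). Number 4 was likewise higher than number 1 for 20 members (2.78%) and lower for 0 (2.08%). Against number 2, number 3 was higher for 6 members (1.13%) and lower for 0 (0.704%), and number 4 was higher for 8 (4.71%) and lower for 0 (4.10%). Between numbers 1 and 2 there were 0 calls among members and 0% among all genes, and between numbers 3 and 4 there were 0 members, with 0.597% of all genes higher and 0.647% lower in number 4. The median log2 fold change of the 34 members was 0.96 for number 3 over 1 and 0.88 for 4 over 1, with all 34 estimates above 0 in both, while the median of all genes was -0.01 and 0.01. It was 0.25 for 2 over 1 and -0.12 for 4 over 3. Each number rests on 2 libraries, 1 of each substrate, and these contrasts share libraries with one another.

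Among kinases and cyclins, 4 of 6 members differed between numbers. Ccna2, the cyclin A2 gene at chromosome 3 from 36564865 to 36573038 that acts in S phase and G2, had 61.4, 93.7, 141 and 125 CPM in soft 1 to 4 and 54.7, 91.8, 159 and 154 CPM in stiff 1 to 4. Both libraries numbered 1 were lowest and both numbered 3 and 4 lay above the rest. Its log2 fold change was 1.37 (SE 0.23) for number 3 over 1 and 1.26 (SE 0.23) for 4 over 1, and its adjusted p for number was 6.25e-05, the lowest of the members. Cdk1, the kinase that starts mitosis, stood at 59.5, 61.2, 124 and 113 CPM on soft and 68.4, 62.7, 137 and 109 CPM on stiff, in the order of the numbers. Every library numbered 3 or 4 was above every library numbered 1 or 2, and the adjusted p for number was 5.01e-04. Plk1 ran from 4.25 CPM in soft 1 to 24.8 CPM in soft 4, with 10.7, 7.52, 24.3 and 19.4 CPM in stiff 1 to 4 (adjusted p for number 0.00957). Ccnb1, a cyclin B gene, also passed (0.0335). Plk1 did not pass without soft 1 (0.0874) or soft 4 (0.0547), nor Ccnb1 without soft 1 (0.386), soft 3 (0.0538) or stiff 1 (0.120). Its paralog Ccnb2 (0.103) and the spindle pole kinase gene Aurka (0.113) did not, apart from Ccnb2 without stiff 4 (0.0369) and Aurka without stiff 3 (0.0434), although their estimates for number 3 over 1 were 0.94 (SE 0.32) and 0.75 (SE 0.34).

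Both genes of chromosome structure passed. Mki67 had 153, 151, 238 and 234 CPM in soft 1 to 4 and 158, 157, 292 and 298 CPM in stiff 1 to 4. The 4 libraries numbered 1 or 2 lay close together, and the stiff libraries numbered 3 and 4 were the highest. The adjusted p was 0.00269 for number, and for stiff against soft the log2 fold change was 0.22 (SE 0.24). Top2a, the topoisomerase that untangles sister chromatids, had 243, 282, 413 and 372 CPM on soft and 233, 305, 397 and 466 CPM on stiff, with an adjusted p for number of 0.0102, which was 0.0674 without soft 3 and 0.108 without stiff 1.

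Of the 5 centromere and kinetochore genes, 3 differed between numbers. Nuf2 and Ndc80 encode partners in the complex that grips spindle microtubules. Nuf2 stood at 17.3, 15.9, 41.8 and 33.7 CPM on soft and 16.3, 21.7, 55.7 and 53.7 CPM on stiff. Its highest library of number 1 or 2, stiff 2, was below its lowest of number 3 or 4, soft 4. Ndc80 stood at 11.4, 22.3, 31.6 and 39.5 CPM on soft and 13.9, 16.3, 42.6 and 41.1 CPM on stiff. For number 3 over 1 the log2 fold change was 1.51 (SE 0.32) for Nuf2 and 1.55 (SE 0.34) for Ndc80, with adjusted p-values for number of 2.84e-04 and 8.20e-04. Cenpf, a large protein of the kinetochore corona, passed with 0.0302, but not without soft 1 (0.300), soft 3 (0.120), stiff 1 (0.167) or stiff 3 (0.0594). The centromeric histone gene Cenpa had 42.3, 46.5, 60.5 and 57.5 CPM on soft and 54.3, 41.6, 65.8 and 52.4 CPM on stiff. Its numbers overlapped, with stiff 1 above stiff 4, and its adjusted p of 0.582 was the highest of the members. Cenpe, a kinetochore motor, did not pass either (0.247), except without soft 4 (0.0394).

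Checkpoint genes and regulators of the anaphase-promoting complex divided. Of the 4 checkpoint genes, the kinase gene Bub1 passed, with 35.8, 39.6, 61.8 and 55.8 CPM on soft and 24.1, 36.1, 76.1 and 84.1 CPM on stiff (adjusted p for number 0.00195). Bub1b had an adjusted p of 0.0560, the kinase gene Ttk 0.104 and Mad2l1, an inhibitor of the complex's activator, 0.264. Mad2l1 stood at 39.3 CPM in soft 1 and 20.1 CPM in stiff 1, so that the libraries numbered 1 lay far apart. In numbers 2 to 4 its log2 differences of stiff minus soft were -0.12, -0.29 and 0.09. Both regulators of the complex passed. Cdc20, its activator in mitosis, stood at 16.4, 13.3, 36.1 and 39.2 CPM on soft and 17.9, 19.2, 40.3 and 42.6 CPM on stiff (0.00160), and Ube2c, its ubiquitin-conjugating enzyme, at 8.56, 8.79, 23.1 and 24.1 CPM on soft and 11.5, 13.4, 28.5 and 20.7 CPM on stiff (0.0171). For both genes every library numbered 3 or 4 was above every library numbered 1 or 2. Bub1 did not pass without stiff 1 (0.0536), nor Ube2c without soft 1 (0.0752), soft 2 (0.0524) or stiff 3 (0.0554), whereas Bub1b passed without soft 4 (0.0405), stiff 2 (0.0488) or stiff 4 (0.0420). With all 8 libraries Bub1b also passed in DESeq2 (0.0456) and limma-voom (0.0359), with no filter (0.0390) and with upper-quartile scaling (0.0437).

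Of the 5 genes of spindle motors and assembly factors, 3 differed between numbers. Kif11, the motor that pushes spindle poles apart, had 58.5, 89.6, 115 and 106 CPM on soft and 48.6, 79.6, 113 and 127 CPM on stiff (adjusted p for number 0.00194). Kif2c, a microtubule-depolymerizing kinesin, had 16.0, 16.3, 43.0 and 40.8 CPM on soft and 14.3, 21.5, 43.8 and 38.0 CPM on stiff (7.82e-04). Both genes were lowest in stiff 1, and for both every library numbered 3 or 4 was above every library numbered 1 or 2. Among the assembly factors, the Aurora A activator gene Tpx2 passed (0.00635), and Nusap1 (0.381) and Hmmr (0.173), which encode microtubule-binding proteins, did not. Of the chromosomal passenger complex, the survivin gene Birc5 passed (0.0101), with 12.1, 15.8, 31.2 and 38.5 CPM on soft and 12.8, 12.6, 31.5 and 21.2 CPM on stiff. Its kinase gene Aurkb, with an estimate of 0.89 (SE 0.36) for number 3 over 1, did not (0.0664). Kif11 (0.0969) and Tpx2 (0.0501) did not pass without stiff 1, Tpx2 (0.0669) not without soft 3 and Birc5 (0.0633) not without soft 1, whereas Aurkb (0.0269) and Hmmr (0.0259) passed without stiff 4 and Hmmr (0.0328) without soft 4. Aurkb also passed in limma-voom with all 8 libraries (0.0423).

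Central spindle and abscission genes, which act last, gave 7 of 8 calls. Kif20a, a kinesin of the central spindle, stood at 39.4, 38.6, 89.3 and 88.2 CPM on soft and 42.9, 48.0, 89.1 and 76.0 CPM on stiff (adjusted p for number 6.10e-04). Kif23 and Racgap1 encode the centralspindlin complex, which recruits the Ect2 protein to the division site. Kif23 stood at 26.9, 30.6, 76.5 and 61.6 CPM on soft and 24.9, 53.8, 65.6 and 62.3 CPM on stiff (9.69e-04). Stiff 2 was nearer to the libraries numbered 3 and 4 than soft 2 was. Racgap1 (0.0324), Ect2 (0.0232), the microtubule bundler gene Prc1 (0.00730), the chromosome-associated kinesin gene Kif4 (0.0102) and Cep55 (0.00312), which organizes the final cut, passed as well. Without stiff 1, Racgap1 (0.0761), Ect2 (0.126), Prc1 (0.0846) and Kif4 (0.0652) did not pass, and without soft 1 Racgap1 (0.172), Ect2 (0.0549) and Cep55 (0.141) did not. Racgap1 also missed the threshold without soft 3 (0.0585) or stiff 4 (0.0688), and Ect2 without soft 3 (0.204) or stiff 3 (0.184). Anln was the exception, with 197, 234, 297 and 218 CPM on soft and 182, 222, 237 and 222 CPM on stiff (0.456). Its levels in soft 4 and stiff 4 were no higher than in soft 2 and stiff 2. Over the 8 genes, the estimates for number 3 over 1 ran from 0.49 (Anln) to 1.51 (Cep55).

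**Figure D3:**
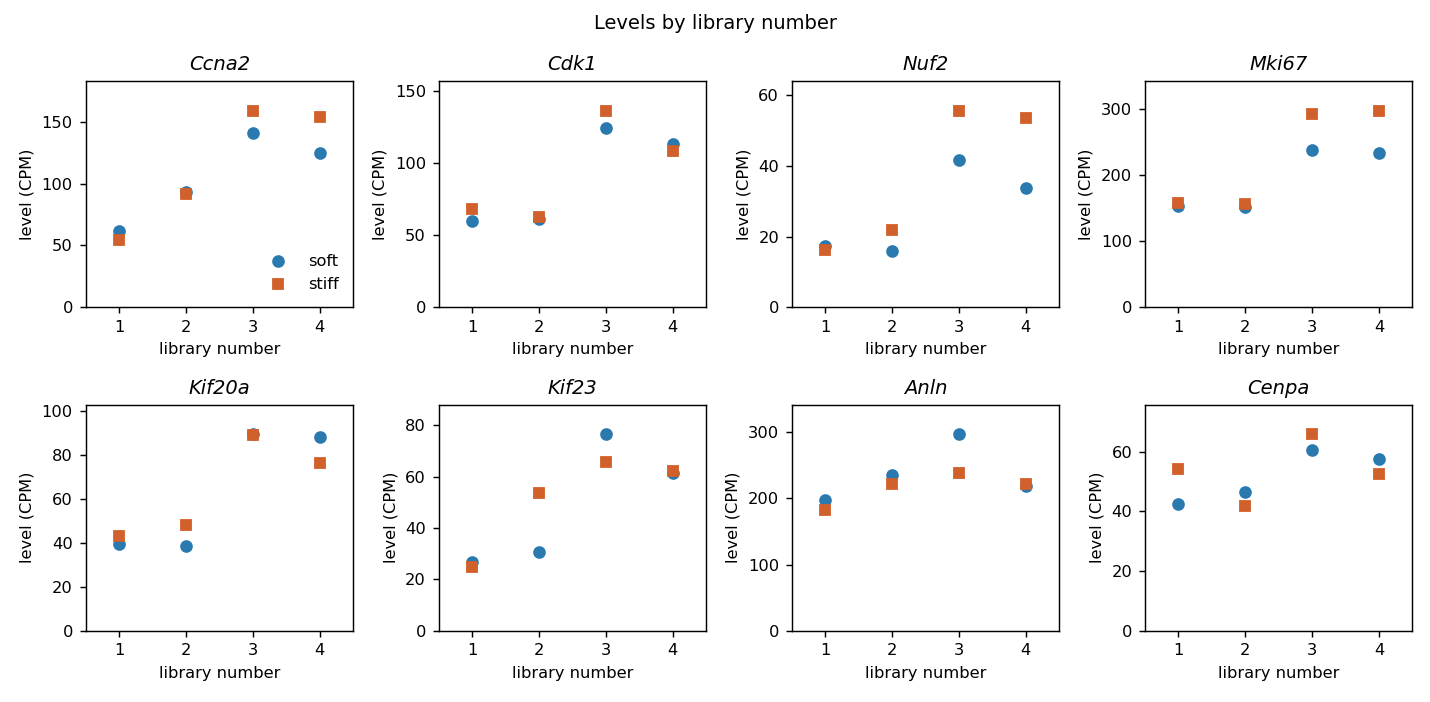
Level in CPM (axes from 0) of 8 members by library number; circles are soft and squares stiff libraries, 1 point each. In the first 6 genes the libraries numbered 3 and 4 lie above those numbered 1 and 2, whereas in Anln and Cenpa the numbers overlap.

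Within a number, members differed between stiff and soft in both directions. Stiff exceeded soft for 16 of 34 members in number 1, 17 in number 2, 17 in number 3 and 24 in number 4, and the median log2 differences were -0.04, 0.01, 0.00 and 0.13. Single members lay further apart, from -0.97 (Mad2l1) to 1.32 (Plk1) in number 1, -0.57 (Plk1) to 0.81 (Kif23) in number 2, -0.70 (Aurka) to 0.43 (Ndc80) in number 3 and -0.86 (Birc5) to 0.71 (Hmmr) in number 4. Over all genes the share higher on stiff was 50.2%, 49.9%, 46.9% and 49.3%. Mki67 and Cdc20 were the members higher on stiff in all 4 numbers, and 0 were lower in all 4, where 10.2% of all genes kept 1 direction. For Mki67 these log2 differences were 0.05, 0.05, 0.30 and 0.35.

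Other genes of the cell cycle were examined by lists. Of 100 other tested mitotic genes, 0 were called between substrates and 31 between numbers (31.0%, against 7.61% of all genes). Number 3 was higher than number 1 for 10 of them (1.02% of all genes) and lower for 0 (0.605%). Number 4 was higher than number 1 for 20 of them (2.78% of all genes) and lower for 0 (2.08%). Their median log2 fold change of stiff over soft was 0.04. The lowest p between substrates was that of Wee1, the kinase that holds Cdk1 inactive, with 21.2, 29.7, 26.8 and 24.1 CPM in soft 1 to 4 and 29.2, 31.7, 30.2 and 47.7 CPM in stiff 1 to 4 (log2 fold change 0.45, SE 0.24), and it did not pass. Soft 2 lay above stiff 1, so the substrates overlapped. Cdca8, which encodes a partner of survivin, had -0.53 (SE 0.36) and the kinetochore gene Spc25 0.43 (SE 0.29). Ckap5, a microtubule polymerase, and Smc4, a condensin subunit, took the most counts of the list (not corrected for length), with log2 fold changes of 0.07 (SE 0.16) and 0.19 (SE 0.17).

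Genes of DNA replication and the G1/S step also differed between numbers, with 22 of 48 called (45.8%, against 7.61% of all genes). Between substrates 0 were called. Number 4 had the highest mean for 41 of these 48 (30.7% of all genes), and number 3 for 4 (22.4% of all genes). For the mitotic members number 3 was highest more often, as given above; the difference between the lists was not tested. Rpa2 (a subunit of a single-strand DNA-binding complex), Orc6 (origin recognition) and Cdc6 (origin licensing) had the lowest p-values between substrates, with log2 fold changes of 0.49 (SE 0.37), 0.37 (SE 0.28) and 0.95 (SE 0.73). Rrm1, a ribonucleotide reductase subunit, and Rfc1, of the clamp loader, had -0.0049 (SE 0.18) and -0.15 (SE 0.16). Of 7 genes for inhibitors of cyclin-dependent kinases, 0 differed between substrates and 2 between numbers (28.6%, against 7.61% of all genes). Cdkn1c (p57) stood at 29.1, 46.7, 22.7 and 7.13 CPM on soft and 21.1, 33.9, 17.3 and 4.94 CPM on stiff, so that number 2 was highest and number 4 lowest on both. Cdkn1b (p27) stood at 88.7, 168, 114 and 81.6 CPM on soft and 114, 167, 93.4 and 71.2 CPM on stiff. Their adjusted p-values for number were 5.87e-06 and 0.00262. For stiff over soft, the log2 fold changes of Cdkn1a and Cdkn2d were -0.25 (SE 0.20) and -0.17 (SE 0.29).

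**Figure D4:**
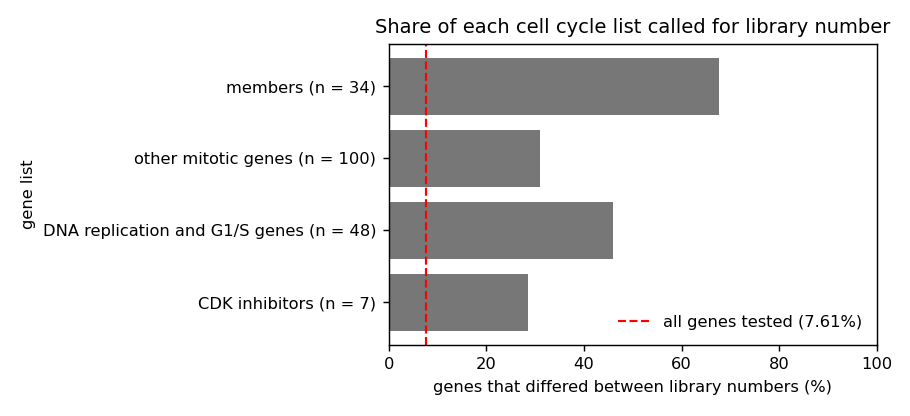
Share of each cell cycle list (bars, in percent of its tested genes, n in the labels) called between library numbers by edgeR, with the share of all 14059 genes as a dashed line at 7.61%. The members stand at 67.6%, other mitotic genes at 31.0%, replication genes at 45.8% and CDK inhibitors at 28.6%. Fibroblast and cardiomyocyte markers, not drawn, stand higher than the members, at 75% each.

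Markers of some cell types differed between library numbers too, where 7.61% of all genes did. The 34 members summed to 1738, 2072, 3226 and 2714 CPM in soft 1 to 4 and 1714, 2117, 3168 and 3215 CPM in stiff 1 to 4. The 12 fibroblast markers summed to 8572, 9365, 14643 and 15038 CPM on soft and 7872, 9187, 12451 and 11776 CPM on stiff. Both sums were thus higher in all 4 libraries numbered 3 or 4. Of these 12 markers 9 differed between numbers (75%). In number 3, 4 were higher and 1 was lower than in number 1, against 1.02% and 0.605% of all genes. In number 4, 4 were higher and 0 lower than in number 1, against 2.78% and 2.08%. Mfap5 was at 0 in 2 libraries, and the other 11, with Pdgfra and Tcf21, were counted in all. The 12 mural markers summed to between 3041 and 4749 CPM and 5 differed between numbers; Kcnj8 was at 0 in 3 libraries. Cardiomyocyte markers, of which 9 of 12 differed, summed to 35365 and 31416 CPM in soft 4 and stiff 4 and to between 19030 and 23412 CPM in the other 6, with number 3 among the lower libraries. Endothelial markers summed to between 221 and 401 CPM (2 of 12 differed, Robo4 at 0 in 1 library), epicardial to between 937 and 1515 CPM (4 of 11) and leukocyte markers to between 136 and 199 CPM (0 of 13, C1qa and Fcer1g at 0 in 1 library each). Leukocyte sums went the other way from the members, with 199, 160, 148 and 153 CPM on soft and 190, 186, 139 and 136 CPM on stiff. Endothelial sums were 333, 297, 221 and 309 CPM on soft and 401, 319, 252 and 257 CPM on stiff. The part of these cell types in the members' levels was not tested.

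**Figure D5:**
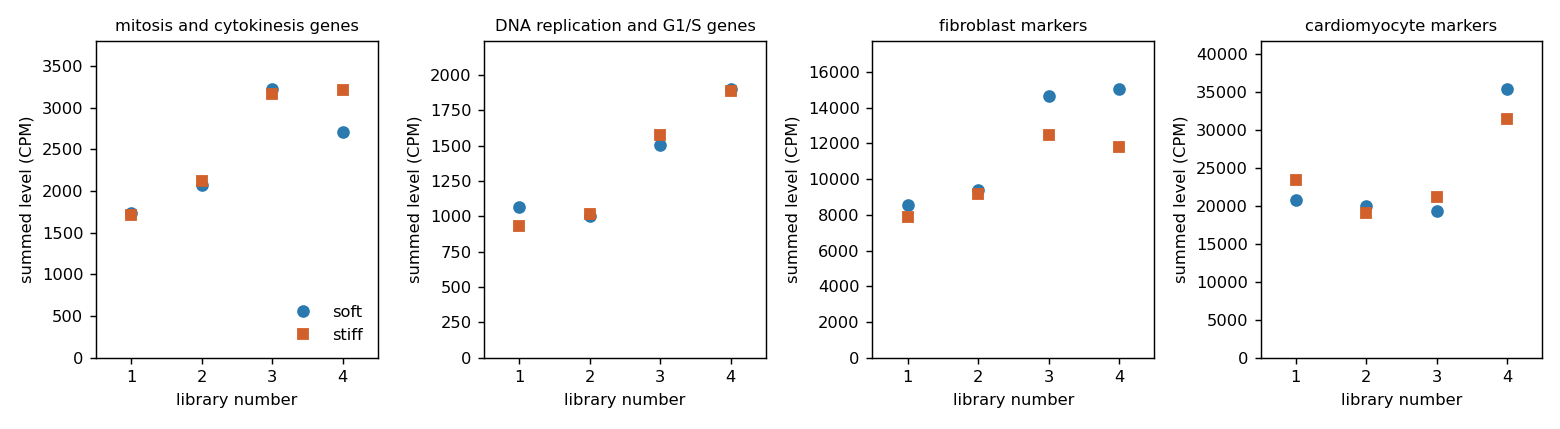
Summed CPM (axes from 0) of the members, of replication genes, of fibroblast markers and of cardiomyocyte markers by library number; circles are soft and squares stiff libraries, 1 point each. Members and fibroblast markers are higher in numbers 3 and 4, while cardiomyocyte markers are high in number 4 alone.

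The 8 genes whose log2 CPM over the 8 libraries was most like the members' mean, among 11230 other genes with a mean of at least 5 CPM, were Cdca2, Aldh1l2, Col3a1, Tenm4, Ldlrad3, Cdk5rap2, Psat1 and Gm9833. Pearson's r lay between 0.96 and 0.98 as a description. Since the libraries numbered 3 and 4 stand above the others in the members, any gene that separates the same libraries scores high. Cdca2 targets a phosphatase to mitotic chromosomes and Cdk5rap2 anchors microtubules at centrosomes. Aldh1l2 is an enzyme of mitochondrial folate metabolism and Psat1 one of serine synthesis. Psat1 stood at 94.1, 99.1, 192 and 192 CPM on soft and 69.3, 94.6, 201 and 210 CPM on stiff. Col3a1, a fibrillar collagen gene and one of the fibroblast markers, stood at 1777, 2078, 3567 and 3388 CPM on soft and 1746, 2100.1, 3149 and 3086 CPM on stiff. In both genes the libraries numbered 3 and 4 were the 4 highest.

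Some counts carry limits of annotation. In RefSeq the spans of 7 members overlap another protein-coding gene (Exosc9 at Ccna2, Cstf1 at Aurka, Elovl1 at Cdc20, Oip5 at Nusap1, Rccd1 at Prc1, 9530077C05Rik at Anln, Brd8 and Cdc23 at Kif20a), and whether reads were counted by strand is not given in the sources used here. Named pseudogenes exist for Ccnb1, Ccnb2 and Kif4, with which reads could be shared.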

How the data were processed

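RNA-seq was deposited by the authors as raw read counts per gene, 8 libraries in a coding table (used here) and a noncoding table (not used here, since every member is in the first). Without giving roles, the submitters' processing notes list HTSeq 0.6.1, TopHat2 2.0.14, TopHat, FastQC 0.11.2, Bowtie2, Cufflinks, edgeR and DESeq2, and the build GRCm38. Groups came from the substrate label, and library numbers from the last digit of the code in the title.

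The tools were edgeR 4.0.16, DESeq2 1.42.0 and limma 3.58.1 under R 4.3.3. filterByExpr (minimum count 10, minimum total 15) set the genes tested, and TMM the scaling. The fit for stiff against soft was edgeR glmQLFTest (robust) on substrate alone. Numbers were compared by an F test over 3 number terms beside substrate. Both were adjusted over 14059 genes. SEs and 95% intervals come from the same fits. Member windows, gene positions and symbols come from RefSeq and Ensembl name tables, and 29150 of 29844 IDs had a symbol.

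Libraries of equal number deviated from their substrate means together (Pearson's r over genes 0.10, 0.18, 0.13 and 0.31 for numbers 1 to 4, each over 0.1). However, soft 1 was closer to stiff 2 (0.11) than to stiff 1, and stiff 1 closer to soft 2 (0.13) than to soft 1. The pairing within numbers 1 and 2 is therefore unclear. Numbers were compared because the genes were to be described by the last digit of the library code. No label says that equal digits share a source. The correlations come from the same counts as the tests between numbers, so they lend those tests no separate support. No 2 libraries agreed within sampling noise (chi-square per degree of freedom 44.8 to 224 over 28 pairs). Alternatives were other scaling, filters and tools, each library left out and the number as a block. The members and lists were chosen with earlier results of these data known. The rule for named genes took all 34 members, the 3 genes of lowest p between substrates and the 2 of highest mean CPM of every other list, and the 8 non-members (mean of at least 5 CPM) whose log2 CPM (prior count 2) correlated best with the mean of the members. Cell type lists are given as sums, and the markers named from them were chosen after their values were seen.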

Additional observations from a re-analysis of the deposited data

Results flagged for a closer look

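In 132 groups of 4 libraries examined (named cell cycle genes, the most alike genes, summed lists and coding totals, on each substrate), 3 held a library whose distance from its nearest neighbour, as a share of the group's range, passed Dixon's 95% critical value. Chance flags about 1 in 20 groups. Among members, Nusap1 stood at 62.9 CPM in soft 3, against 45.2 CPM in the next soft library and 42.7 CPM in the lowest. Wee1 stood at 47.7 CPM in stiff 4, against 31.7 CPM in the next stiff library. The summed cardiomyocyte markers stood at 35365 CPM in soft 4, against 20699 CPM in the next soft library.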

How the results depend on the processing

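Of the 34 members, 0 were called between stiff and soft under every alternative run: other scaling factors, no filter, a stricter filter (1 CPM or more in 4 libraries), limma-voom and DESeq2, each library left out and the replicate block. The count of all genes called was 0 throughout as well, except with the replicate block (the number as a term) in limma-voom, where it was 8, none of them a member. The replicate block in edgeR changed no other call (0 genes, with 360 at an unadjusted p under 0.05); the median member interval then reached 1.31-fold to either side, and the median log2 fold change was 0.06. Leaving out 1 library moved that median between -0.11 and 0.23, genes called between numbers from 822 to 1697, and members called between numbers from 13 (without stiff 1) to 26 (without stiff 4); genes and members called between substrates stayed at 0. Fewer libraries per number enter those fits. With other scaling, filters and tools, 23 to 25 members and 972 to 1363 genes were called between numbers. The estimates of stiff over soft changed sign for some genes. Apart from fits with a library left out, these were Kif11 (0.00819) and Rrm1 (0.00525) with DESeq2 size factors, Kif20a (-0.00664) with upper-quartile scaling, Kif11 (0.00174) with no filter, Kif11 (2.22e-05) with the stricter filter, Kif11 (0.0085) and Rrm1 (0.00564) in DESeq2, Aurkb (0.0588) in limma-voom, Ccnb2 (-0.0132), Aurkb (0.0392) and Kif4 (-0.0323) with the replicate block. With 1 library left out, 26 of 34 members changed sign at least once, and the log2 fold changes with a change of sign ran as follows: Ccna2 -0.0704 to 0.359, Ccnb1 -0.13 to 0.251, Ccnb2 -0.303 to 0.187, Cdk1 -0.163 to 0.272, Plk1 -0.264 to 0.41, Top2a -0.0709 to 0.25, Cenpa -0.0651 to 0.156, Ndc80 -0.14 to 0.396, Ube2c -0.0852 to 0.467, Kif2c -0.236 to 0.273, Prc1 -0.122 to 0.194, Kif4 -0.198 to 0.265, Kif20a -0.199 to 0.207, Kif23 -0.123 to 0.379, Ect2 -0.111 to 0.295, Cep55 -0.0598 to 0.453, Cdc20 -0.0261 to 0.462, Cdkn1b -0.283 to 0.237, Aurka -0.329 to 0.157, Cenpe -0.193 to 0.189, Bub1b -0.199 to 0.171, Ttk -0.449 to 0.116, Kif11 -0.200 to 0.207, Aurkb -0.259 to 0.223, Racgap1 -0.313 to 0.0658, Rrm1 -0.108 to 0.109, Bub1 -0.0858 to 0.44, Hmmr -0.0109 to 0.316 and Cdkn2d -0.377 to 0.00839. The cause of single changes of sign was not tested.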
